A study of Mus musculus with 10 samples.

Results

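Grb10, Ddc, Cobl, Commd1 and Zrsr1 are 5 protein-coding genes of mouse chromosome 11 that lie in a pair of imprinted domains, Grb10 with Ddc and Cobl in one and Commd1 with Zrsr1 in the other. They were found by gene symbol among the 52632 genes of a table of RNA-seq counts from mouse neural stem cells, and all 5 were present. An imprinted gene is transcribed mainly from the copy inherited from one parent, because the germ lines leave different DNA methylation marks on the 2 copies. Grb10, an adaptor that binds the insulin and IGF1 receptors and limits their growth signal, is a classic case: its maternal copy is used in most tissues and its paternal copy, from promoters further downstream, in neurons. Zrsr1, a retroposed gene for a protein related to the splicing factor subunit U2AF1, is known as paternally expressed and sits inside Commd1 on the opposite strand.

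The cells were cultures from the cortices of single embryos at embryonic day 14.5, kept as monolayers on laminin with EGF and FGF, each at 20 ng/mL. Female E147A/+ embryos (n = 2, litters 1 and 2) were Smchd1GFP-E147A/+; XistdeltaA/+, and female +/+ embryos (n = 2, both of litter 3) were Smchd1+/+; XistdeltaA/+. Male E147A/+ embryos (n = 3, litters 1, 1 and 3) were Smchd1GFP-E147A/+; XY and male +/+ embryos (n = 3, litters 4, 1 and 3) were Smchd1+/+; XY. E147A lies in the ATPase domain of SMCHD1. This chromatin protein keeps genes silent on the inactive X and in some imprinted and clustered loci, and the study asked what the change does to silencing. The mutant allele is also GFP-tagged and the +/+ allele is not, so tag and mutation cannot be told apart, and every mutant still had a +/+ allele. All females, the +/+ group included, carried the Xist deletion on the maternal X. The labels state that every embryo had a Castaneus (Cast) father and a 129/C57 F1 mother, so that any Cast read is paternal.

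Total counts ran from 20648916 to 44519020 per library, and in the 4 female libraries 30.6% to 31.7% of them were also assigned to the 129 or the Cast allele. Smchd1 itself had a log2 fold change of -0.42 (SE 0.15) for E147A/+ over +/+, with 94.2 to 127.9 CPM (counts scaled to the TMM-adjusted library size) in the 5 E147A/+ libraries and 122.5 to 191.8 CPM in the 5 +/+ libraries. The adjusted p was 0.786 in edgeR's quasi-likelihood test, and gene counts do not show a point mutation. The 8 neural stem markers summed to 4677 to 6725 CPM in the libraries, which are labelled as neural stem cells. The 6 oligodendrocyte lineage markers summed to 1234 to 1878 CPM, nearly all Olig1 and Olig2, the 5 astrocyte markers to 174.0 to 252.5, and the 5 ventral forebrain markers to 0.439 to 39.7, with Nkx2-1 at 0 throughout. The 5 microglial markers reached at most 2.84 CPM in sum, the 4 endothelial ones 2.90 and the 5 mesenchymal ones 17.8, and the 8 neuronal ones ran from 572.8 to 1035 CPM, most of it Map2.

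The allelic libraries went against the statement of a Cast father at both domains. A library was taken to carry both strains where the median Cast share (Cast counts as a percentage of 129 plus Cast counts) of the genes around a domain was 35% to 65%, over the genes within 5 Mb with 20 or more allelic counts in each of the 4 female libraries. Around Grb10, Ddc and Cobl, 17 genes gave medians of 50.6% and 49.3% in the female +/+ libraries, but 0.167% and 0.129% in female E147A/+. Around Commd1 and Zrsr1, 29 genes gave 46.9% and 49.2% in +/+ against 0.197% and 0.102% in E147A/+. Both female +/+ cultures thus held a Cast copy of each domain and a copy counted as 129. Whether the latter was of 129 or C57 origin was not tested, since the counts have no C57 column. Neither female E147A/+ culture held a Cast copy. Allele use of these genes therefore could not be compared between genotypes, and strain, genotype and litter cannot be told apart in females. The male libraries had no allelic counts, so the strains they carried at the domains are not known. Whether strain there differed between the male groups was not tested. Only 1 direction of the cross was used, so parent of origin and strain cannot be told apart either.

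The promoters of the 3 members with enough allelic counts in every female library are shown because these genes differ in which allele gave the counts. They are RefSeq windows of GRCm38.p6, 250 bases before to 50 after the start, written 5′ to 3′ on the strand of the gene, with each CG, the site of DNA methylation, in capitals. In the same order they are chr11:12037371-12037670 on the minus strand, chr11:22982235-22982534 on the minus strand and chr11:22971755-22972054 on the plus strand.
Grb10: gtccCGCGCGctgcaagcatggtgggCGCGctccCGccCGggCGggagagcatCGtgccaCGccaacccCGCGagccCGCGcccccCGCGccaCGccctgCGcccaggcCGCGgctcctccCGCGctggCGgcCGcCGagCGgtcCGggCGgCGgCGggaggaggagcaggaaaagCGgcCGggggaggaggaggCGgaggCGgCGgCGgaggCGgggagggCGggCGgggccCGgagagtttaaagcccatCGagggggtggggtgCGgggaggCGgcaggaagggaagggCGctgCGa
Commd1: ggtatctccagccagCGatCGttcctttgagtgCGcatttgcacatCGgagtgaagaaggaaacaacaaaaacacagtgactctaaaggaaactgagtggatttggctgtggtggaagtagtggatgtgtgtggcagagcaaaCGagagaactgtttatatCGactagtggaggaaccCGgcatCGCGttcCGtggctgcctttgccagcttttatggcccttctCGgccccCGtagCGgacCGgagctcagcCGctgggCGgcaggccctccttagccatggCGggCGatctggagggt
Zrsr1: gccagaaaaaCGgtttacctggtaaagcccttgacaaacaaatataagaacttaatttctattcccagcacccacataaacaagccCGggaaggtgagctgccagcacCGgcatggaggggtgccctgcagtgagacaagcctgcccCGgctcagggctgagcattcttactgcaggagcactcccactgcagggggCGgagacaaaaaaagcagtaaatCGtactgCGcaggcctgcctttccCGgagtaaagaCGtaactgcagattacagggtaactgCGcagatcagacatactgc
The Grb10 window held 45 CG, a number that 1.93% of the 32851 promoters in the table reached, against a median of 7. The Commd1 window held 18 (reached by 29.72%) and the Zrsr1 window 10 (reached by 43.47%). All 5 members had an entry, 9 windows in all. Other starts of the same genes differed: the second Grb10 window held 9 CG (reached by 45.78%) and the second Commd1 window 17. The Cobl windows held 42 (reached by 3.03%) and 0, and the Ddc windows 2 and 5. The letters TGCCGC, the core of the ZFP57 motif and themselves holding a CG, were searched on both strands. They occurred 1 time in the Grb10 window shown and 1 time in the Commd1 window shown, were not found in the second Grb10 window or the Zrsr1 window, and are in 11.61% of promoters.

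Grb10 (ENSMUSG00000020176, chromosome 11, 11930508 to 12038683, minus strand) gave almost no Cast counts in cultures that had a Cast copy. In female +/+ replicate 1, 6 of 1620 allelic counts were Cast, or 0.370% (95% Wilson interval 0.170 to 0.806). In replicate 2, 6 of 2719 were Cast, or 0.221% (0.101 to 0.481). The female E147A/+ libraries, which lacked Cast there, gave 5 of 2201 (0.227%) and 6 of 2028 (0.296%). The +/+ mean of 0.296% ± 0.106 (SD, n = 2) differed from the 0.262% ± 0.0486 (SD, n = 2) of these libraries without a Cast copy by less than the spread between replicates. No female library carried Cast alone at Grb10, so whether every Cast read of this gene reaches the Cast column was not tested. Allelic counts made up 11.5% and 11.2% of all Grb10 counts in +/+, and 11.6% and 11.3% in E147A/+. These intervals, and the upper limits given for counts of 0, take in counting error alone.

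Zrsr1 (ENSMUSG00000044068, chromosome 11, 22972005 to 22976496, plus strand) showed the opposite pattern. All 27 allelic counts in female +/+ replicate 1 were Cast (100%, Wilson interval 87.5 to 100) and all 36 in replicate 2 (90.4 to 100). Over both libraries 0 of 63 counts were 129, and the Wilson interval of the Cast share was 94.3 to 100. A floor of 3 counts over the group is 4.76% of the 63, and with 129 set at that floor Cast was 21-fold higher. In E147A/+ without a Cast copy, 34 of 35 counts (Cast share 2.86%) and 33 of 33 counts were 129. The columns therefore recorded Zrsr1 reads of either strain.

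Commd1 (ENSMUSG00000051355, chromosome 11, 22896136 to 22982382, minus strand), which encodes a copper homeostasis and endosomal sorting protein and surrounds Zrsr1, gave counts from both alleles. Its Cast share was 42.4% (36 of 85, interval 32.4 to 53.0) in +/+ replicate 1 and 36.8% (25 of 68, 26.3 to 48.6) in replicate 2, a mean of 39.6% ± 3.95 (SD, n = 2). The E147A/+ background was 2.25% (2 of 89) and 0 of 73, which allows up to 4.11%. Only 3.37% to 4.93% of Commd1 counts were allelic, so these shares rest on few reads. Zrsr1 and Commd1 share 412 exon bases on opposite strands, 9.2% of Zrsr1 and 6.9% of Commd1. The libraries were stranded, but whether the counting used strand is not given in the sources used here. If it did not, reads in those bases cannot be told apart. Commd1 also shares 294 exon bases, 5.0% of its own, with Gm28048 on the same strand, where strand cannot separate reads. Gm28048 had 1 count in female E147A/+ replicate 2 and 0 in the other libraries.

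Cobl (ENSMUSG00000020173, chromosome 11, 12236608 to 12464960, minus strand), an actin nucleator of neuronal branching, had 0 of 2 Cast counts in +/+ replicate 1 and 12 of 39 in replicate 2, a share of 30.8% (interval 18.6 to 46.4). Its Cast copy was thus used in replicate 2, and the depth in replicate 1 could not show it. Ddc (ENSMUSG00000020182, chromosome 11, 11814101 to 11898144, minus strand), the aromatic L-amino acid decarboxylase of dopamine and serotonin synthesis, had 2 of 4 and 0 of 2 Cast counts. No allelic statement about Ddc was possible at this depth.

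**Figure D1:**
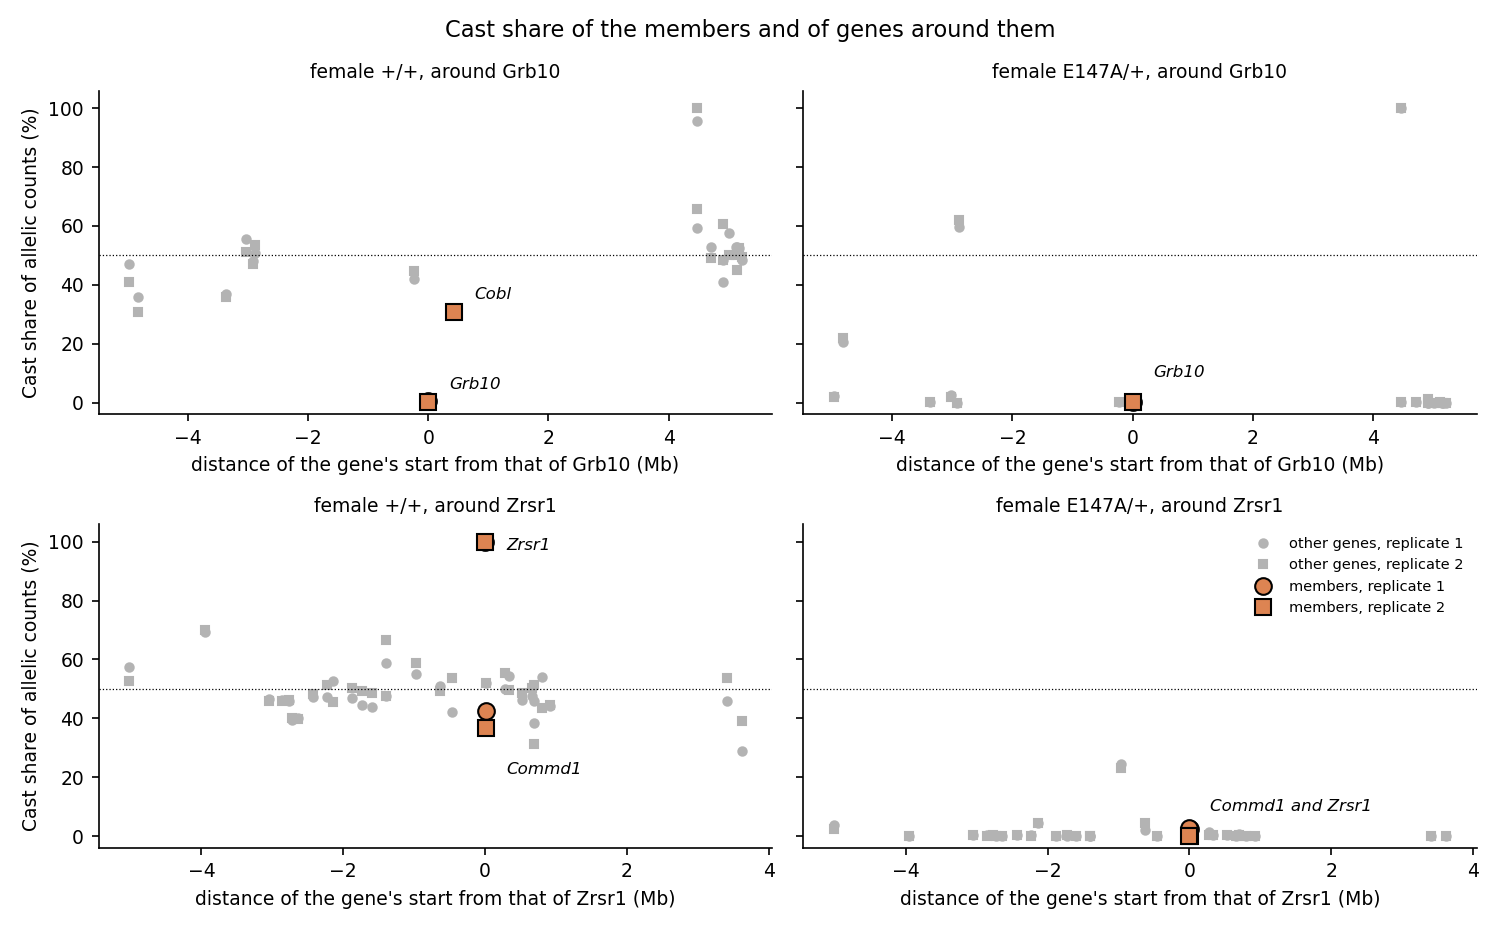
Cast share of allelic counts (%) in the female libraries against the distance (Mb) of each gene's start from that of Grb10 (top) or Zrsr1 (bottom), with members that had at least 20 allelic counts in orange, other genes within 5 Mb of the domain in grey, and circles and squares for replicates 1 and 2. In +/+ (left) most grey points lie near 50% while Grb10 lies at 0.370% and 0.221% and Zrsr1 at 100%; in E147A/+ (right) nearly all points lie near 0.

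Most genes next to the members gave counts from both alleles. Within 5 Mb, all 17 flanking genes had a higher Cast share than Grb10 in both +/+ libraries, the lowest being Igfbp3 at 35.7% and 30.7%. Fignl1, the nearest tested gene on the Ddc side, was at 41.8% and 44.5%, and Egfr, beyond Cobl, at 52.7% and 49.3%. All 29 genes around the other domain had a lower share than Zrsr1, the highest being Meis1 at 69.4% and 70.0%. Cct4, the neighbour of Commd1 on its upstream side, was at 51.8% and 51.9%, and Tmem17 on its downstream side at 42.3% and 53.7%. Commd1 lay in the lower part of its neighbours, with 5 of 29 lower in replicate 1 and 1 of 29 in replicate 2. A few neighbours read as Cast even without a Cast copy: 3 of 17 and 1 of 29 were above 5% in E147A/+, namely Igfbp3 (20.7% and 22.1%), Gm11993 (59.6% and 62.1%), Akt2-ps (100% in both) and Otx1 (24.5% and 23.0%). The share of Igfbp3 in +/+ thus holds background, and Akt2-ps, at 95.7% and 100% in +/+, tells nothing of allele use.

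Shares as extreme as those of Grb10 and Zrsr1 were rare elsewhere. In the 72 of 255 autosomal 10 Mb bins where both +/+ libraries carried both strains, 2820 other genes had at least 20 allelic counts in each. Of these, 13 (0.461%) were at or under 1% Cast in both libraries, among them the maternally expressed RNAs H19 and Rian and 5 processed pseudogenes. At or above 99% were 16 (0.567%), among them Kcnq1ot1 and Airn, paternally expressed noncoding RNAs, and 9 processed pseudogenes. Of those 16, 13 were also at or above 90% Cast in both E147A/+ libraries, and 1, Airn, was at or under 10% in both, as Zrsr1 was. A share at or under that of Commd1 in both libraries was found in 211 genes (7.48%).

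In edgeR's quasi-likelihood test of Cast against 129 within the 2 female +/+ libraries, 356 of 2986 genes passed an adjusted p of 0.05 (11.9%), 200 with Cast lower (6.70%) and 156 with Cast higher (5.22%). Grb10 was among the former, with a log2 ratio of Cast to 129 of -8.44 (SE 0.20, adjusted p = 0.000888, lower in 2 of 2 libraries). Zrsr1 was among the latter (adjusted p = 0.0415, higher in 2 of 2). Its fitted ratio depends on the prior count, since its 129 counts were 0. Commd1, at -0.60 (SE 0.31, adjusted p = 0.287), and Cobl, at -1.35 (SE 0.66, adjusted p = 0.269), did not pass, and Ddc had too few counts to be tested. The 2 cultures are littermates, and the test measures only the spread between them. With all autosomal genes in the fit no gene passed, and the adjusted p was 0.197 for Grb10 and 0.388 for Zrsr1; without a filter on low counts that of Zrsr1 was 0.117.

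**Figure D2:**
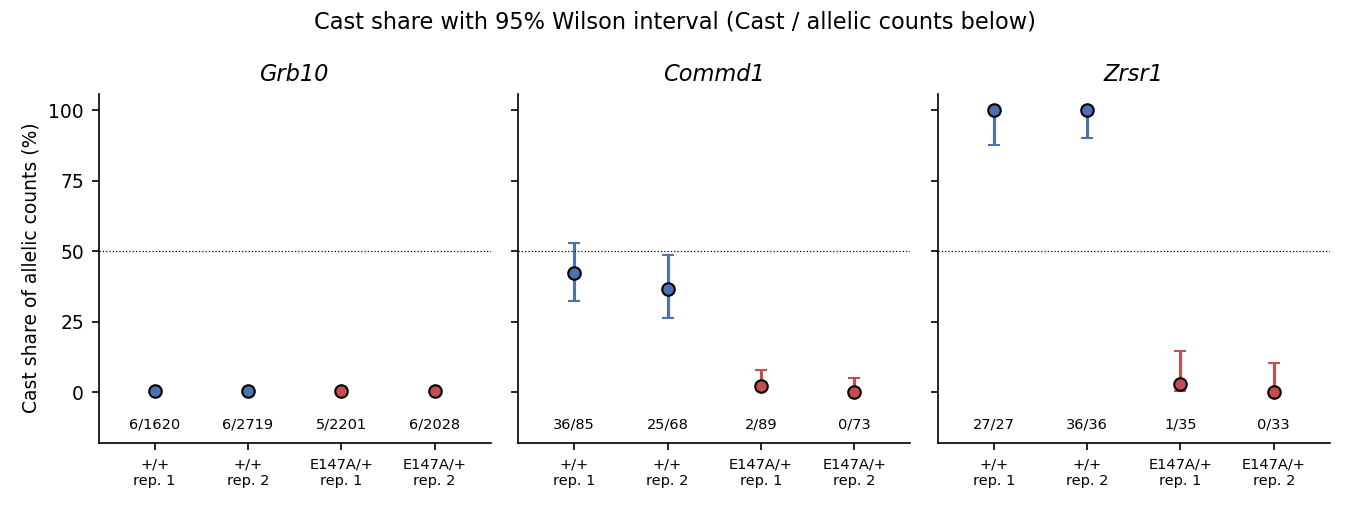
Cast share of allelic counts (%) of Grb10, Commd1 and Zrsr1 in each female library, with 95% Wilson intervals and the Cast over all allelic counts printed under each point. Grb10 is near 0 in all 4 libraries, Commd1 is at 42.4% and 36.8% and Zrsr1 at 100% in +/+, and Commd1 and Zrsr1 are at or near 0 in E147A/+.

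The direction of the columns was read from imprinted genes on other chromosomes, in the libraries that carried both strains there. The 15 measurable genes of a list known as paternally expressed had a median Cast share of 99.1%, 11 of them at 90% or more. Peg3 was at 100% in female E147A/+ replicate 2 and 99.7% in female +/+ replicate 2. The 6 measurable genes of a list known as maternally expressed had a median of 1.45%, 5 of them at 10% or less, such as Cdkn1c at 3.77% and 1.04% in female +/+. Not every listed gene followed its list. In female +/+ replicate 2, Ndn was at 96.2% and Mkrn3 at 98.3%, but in female E147A/+ replicate 1, whose 10 Mb bin there was also classed as carrying both strains, Ndn had 4 Cast counts of 420 (0.952%) and Mkrn3 had 0 of 226. Whether that library carried Cast at these genes themselves was not tested. Inpp5f was at 60.1% and 65.3%, but it also read 38.6% and 39.2% Cast in the libraries without a Cast copy there, so these shares hold background. Dlk1 was at 20.8% and 59.1% on 24 and 22 counts. Of the maternal list, Ube3a, imprinted in mature neurons, was at 42.3%. Grb10 thus lay near the median of the second list and Zrsr1 near that of the first.

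The 5 genes differed widely in level. Per kilobase of exon, Grb10 was at 52.3 ± 11.5 CPM (SD, n = 10), above 94.3% of the genes tested. Commd1 followed at 7.76 ± 1.51 and Zrsr1 at 1.89 ± 0.517. Ddc at 0.137 ± 0.0970 and Cobl at 0.135 ± 0.0725 were the lowest. The ranges over libraries did not overlap between Grb10 (25.6 to 68.6), Commd1 (6.02 to 10.6) and Zrsr1 (1.38 to 3.13), while those of Ddc (0.0522 to 0.371) and Cobl (0.0196 to 0.254) did. Ddc rested on 7 to 49 counts per library and Cobl on 5 to 69, so both were near the limit of detection.

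Grb10, on the CPM scale, was at 439.2 and 415.6 in female E147A/+ and at 449.9 and 623.1 in female +/+. In males it was at 529.7, 539.0 and 545.2 in E147A/+ and at 509.4, 470.5 and 232.8 in +/+. The E147A/+ libraries were thus below the +/+ libraries in females and above them in males, without overlap in either sex. The log2 fold change of E147A/+ over +/+ was -0.33 (SE 0.33) in females and 0.41 (SE 0.27) in males, with adjusted p of 0.964 and 1.00 in edgeR. The difference between the sexes was -0.74 (SE 0.42, adjusted p = 0.999 in edgeR), and the average of the 2 sexes was 0.04 (SE 0.21, adjusted p = 0.973). The female value was -0.07 without female +/+ replicate 2, -0.55 without female +/+ replicate 1 and -0.69 with litter as a covariate. The difference between the sexes was -0.46 without male +/+ replicate 3, -0.48 without female +/+ replicate 2 and -1.31 with litter as a covariate. Male +/+ replicate 3 carried much of the male value: without it the log2 fold change was 0.13, although 509.4 and 470.5 still lay below the E147A/+ libraries.

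Zrsr1 had 7.32 and 6.43 CPM in female E147A/+ against 9.36 and 6.99 in female +/+, with overlap. In males it had 6.19, 7.57 and 8.18 CPM in E147A/+ and 14.1, 10.1 and 8.47 in +/+, without overlap. Its log2 fold change was -0.25 (SE 0.34) in females, -0.57 (SE 0.27) in males and -0.41 (SE 0.22, adjusted p = 0.821 in edgeR) over both sexes. Its size moved with single libraries. The female value was -0.03 without female +/+ replicate 1 and -0.44 without female +/+ replicate 2. The male value was -0.34 without male +/+ replicate 1 and -0.73 without male +/+ replicate 3. The value over both sexes ran from -0.51 to -0.29 without 1 library, and was -0.23 with litter as a covariate.

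Commd1 had 41.7 and 50.1 CPM in female E147A/+ and 57.3 and 51.0 in female +/+. In males it had 35.7, 39.3 and 37.0 CPM in E147A/+ and 42.5, 43.1 and 63.0 in +/+. It was lower in E147A/+ without overlap in both sexes, by values of -0.24 (SE 0.23) in females and -0.41 (SE 0.18) in males on the log2 scale. Over both sexes the value was -0.32 (SE 0.15), and the adjusted p was 0.821 in edgeR. Without male +/+ replicate 3 the male value was -0.20. The female value ran from -0.36 without female E147A/+ replicate 2 to -0.11 without female E147A/+ replicate 1.

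Ddc had 0.508 and 0.324 CPM in female E147A/+ and 0.669 and 0.308 in female +/+. In males it had 0.268, 0.435 and 0.233 CPM in E147A/+ and 0.862, 0.845 and 1.65 in +/+, the highest single library. The male groups did not overlap and the female groups did. The log2 fold change was -0.22 (SE 0.66) in females and -1.84 (SE 0.55, adjusted p = 1.00 in edgeR) in males. The average of the sexes was -1.03 (SE 0.43, adjusted p = 0.821 in edgeR). It was -1.45 in males without male +/+ replicate 3. In females it ran from -0.68 without female +/+ replicate 2 to 0.42 without female +/+ replicate 1.

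Cobl varied most between libraries, from 0.159 to 2.07 CPM. It was at 0.739 and 0.809 in female E147A/+ and at 0.159 and 1.77 in female +/+. In males it was at 0.964, 1.14 and 1.46 in E147A/+ and at 2.07, 1.41 and 0.473 in +/+. The groups overlapped in both sexes. The average of the sexes was -0.24 on the log2 scale (SE 0.60, adjusted p = 0.942 in edgeR), and its sign depended on single libraries: it was 1.05 without female +/+ replicate 2 and 0.01 without male +/+ replicate 1.

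**Figure D3:**
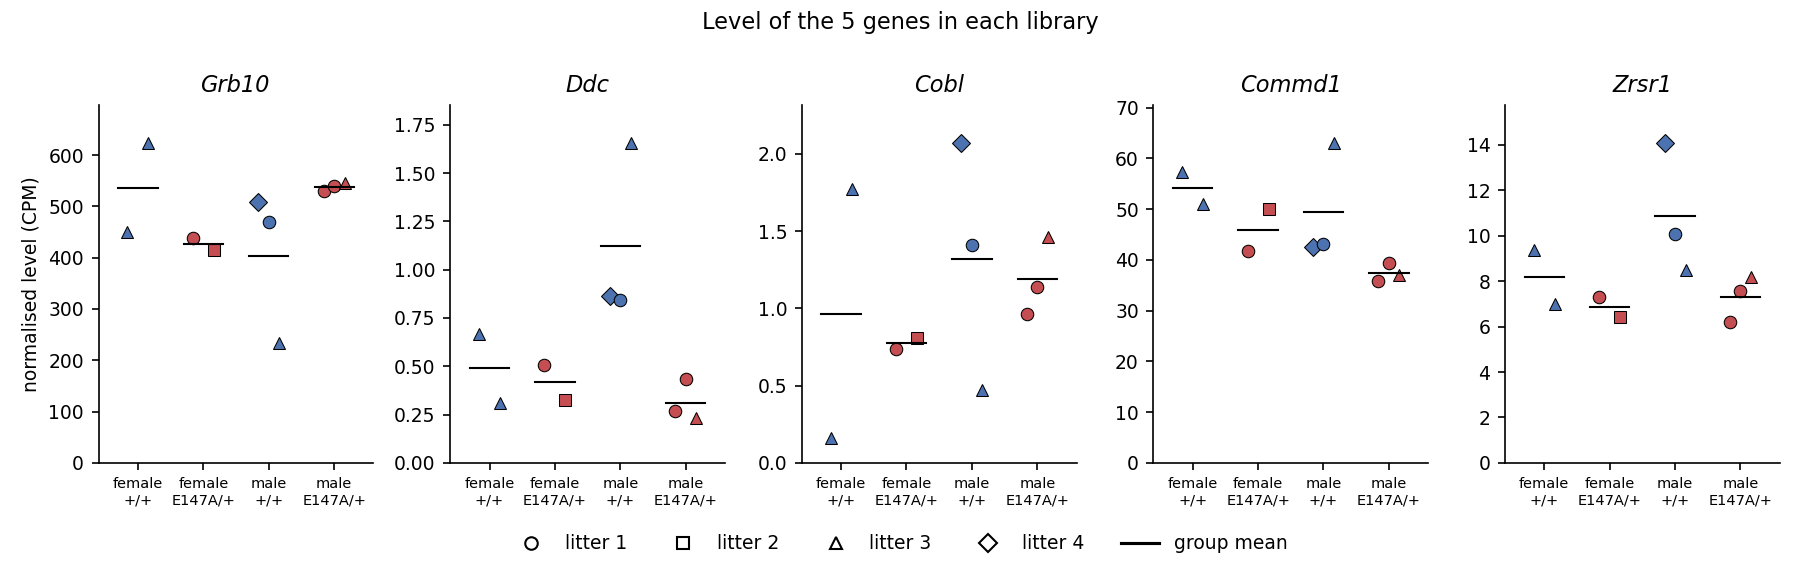
Normalised level (CPM, linear axis from 0) of each gene in the 10 libraries by sex and genotype; points are libraries, marker shapes are litters and lines are group means. Male +/+ replicate 3 is lowest for Grb10 (232.8 CPM) and highest for Ddc (1.65 CPM) and Commd1 (63.0 CPM).

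No member passed the genotype test in any comparison. All 5 passed the filter on low counts, and the share of all 17110 tested genes that passed was itself small: 0.0818% (14 genes) over both sexes, 0.0117% (2) in females, 0.0234% (4) in males and 0.0% for the difference between the sexes (314 genes at an unadjusted p under 0.05). Of the members, 1, Ddc, had an unadjusted p under 0.05 in edgeR over both sexes (0.0381) and in males (0.00794), and none did in females or for the difference between the sexes. Of all tested genes, 5.9% had such a p over both sexes, 4.36% in females and 3.44% in males. DESeq2 and limma-voom called 0 members as well. By groups that did not overlap, 2 of 5 members, Grb10 and Commd1, were separated in females, where 41.0% of all tested genes were. In males 4 of 5 were separated, Ddc, Commd1 and Zrsr1 lower and Grb10 higher in E147A/+, where 7.16% of all tested genes were. The strains that the males carried at the domains are not known. The misses do not show that the members were alike between genotypes. Even the male Ddc value of -1.84 did not pass, but Ddc rested on only 7 to 49 counts per library. Its miss does not show what size of change would have passed for the other members.

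Beside these values, some markers of other cell types had large fold changes between genotypes, of which none passed the test. Pdgfra, of the oligodendrocyte lineage, had a log2 fold change of -2.38 over both sexes (SE 0.48, adjusted p = 0.249 in edgeR). It was at 5.78 and 2.84 CPM in female E147A/+ against 14.0 and 66.7 in +/+, and in males at 22.6, 24.0 and 10.7 against 85.1, 47.2 and 33.5, without overlap in either sex. Sox10, of the same lineage, was at -2.29 (SE 0.76, adjusted p = 0.728 in edgeR), while Olig1 was at -0.08 and Olig2 at 0.05. The summed lineage list was at 1781 to 1878 CPM in female E147A/+, 1765 to 1785 in female +/+, 1234 to 1868 in male E147A/+ and 1716 to 1804 in male +/+. Dlx2 and Dlx1, of the ventral forebrain, were at 2.71 (SE 0.61, adjusted p = 0.356 in edgeR) and 2.18 (SE 0.84, adjusted p = 0.798 in edgeR). That list summed to 11.3 to 28.2 CPM in female E147A/+, 8.44 to 22.1 in female +/+, 27.6 to 39.7 in male E147A/+ and 0.439 to 30.9 in male +/+. Cldn5, of the endothelium, was at -3.26 (SE 1.28, adjusted p = 0.803 in edgeR), with at most 1.82 CPM in any library. Rbfox3, of neurons, was at 1.36 (SE 0.49, adjusted p = 0.772 in edgeR). The neuronal list as a whole had 2 markers higher and 6 lower in E147A/+, with a median of -0.25. Pdgfra, Sox10, Dlx2, Dlx1, Cldn5 and Rbfox3 were the 6 markers with an unadjusted p under 0.05 in edgeR over both sexes. The part of these cells in the values of the members was not tested.

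Litters 1 and 3 held males of both genotypes. Within litter 1 (2 E147A/+ and 1 +/+), the mean log2 difference of E147A/+ from +/+ was 0.18 for Grb10, -1.17 for Ddc, -0.41 for Cobl, -0.20 for Commd1 and -0.56 for Zrsr1. Within litter 3 (1 and 1) it was 1.23 for Grb10, -2.55 for Ddc, 1.52 for Cobl, -0.77 for Commd1 and -0.05 for Zrsr1. Only Cobl changed sign between these litters. In females no litter held both genotypes.

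**Figure D4:**
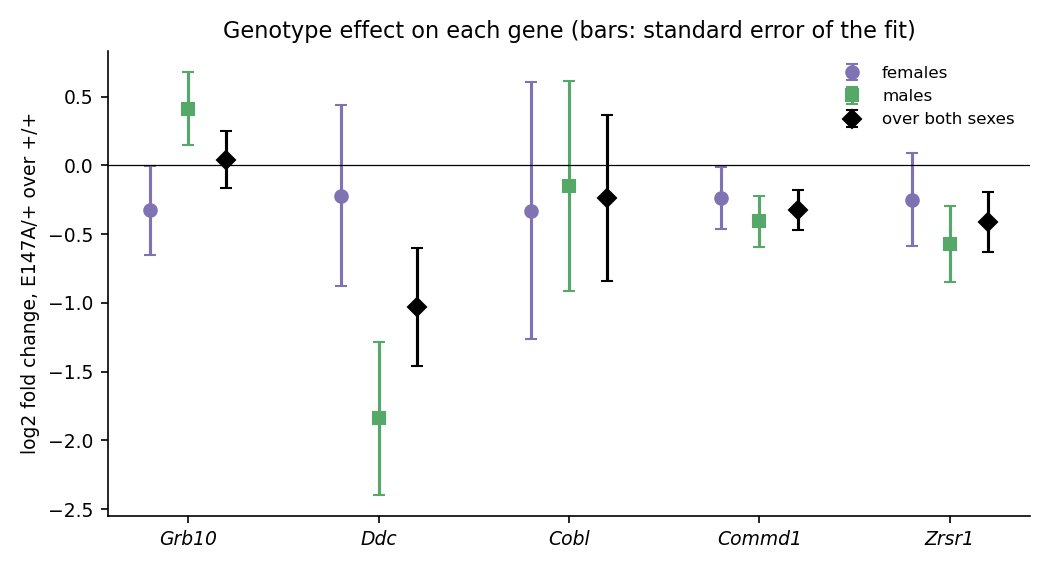
Log2 fold change of E147A/+ over +/+ for each gene in females (circles), males (squares) and over both sexes (diamonds), with bars of 1 standard error of the edgeR fit. Ddc in males (-1.84) lies farthest from 0, Grb10 lies on opposite sides of 0 in females and males, and no value passed the adjusted threshold.

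Single neuronal markers varied between libraries in both directions. Stmn2, Dcx and Neurod6, picked from the neuronal list after their values were seen, were low in female E147A/+ replicate 2, female +/+ replicate 1 and male +/+ replicate 3. Stmn2 was at 0.786, 0.255 and 0.169 CPM there and at 4.69 to 24.9 CPM in the other libraries. Syt1, of the same list, went the other way, at 22.5, 21.7 and 33.4 CPM there and 1.79 to 6.78 in the other libraries. Map2 was highest in male +/+ replicate 3 (981.8 CPM) and Rbfox3 in female E147A/+ replicate 2 (8.25 CPM). The summed list ran from 637.3 to 770.4 CPM in female E147A/+, 644.5 to 809.1 in female +/+, 572.8 to 686.0 in male E147A/+ and 623.0 to 1035 in male +/+. No marker of that list was at 0 in any library. In these 3 libraries Grb10 was at 415.6, 449.9 and 232.8 CPM, against 439.2 to 623.1 in the others, and Cobl at 0.809, 0.159 and 0.473 CPM, against 0.739 to 2.07. Commd1 was at 50.1, 57.3 and 63.0 CPM, against 35.7 to 51.0. Ddc was at 0.324, 0.669 and 1.65 CPM, against 0.233 to 0.862. Zrsr1 was at 6.43, 9.36 and 8.47 CPM, against 6.19 to 14.1. For each member the 2 sets of libraries overlapped. The sets rest on markers picked from these same data, and Syt1 went the other way, so the comparison is a description only. The part of cell composition in these values was not tested, and in bulk RNA fewer cells of a type and less RNA per cell cannot be told apart.

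The genes most like each member were ranked by Pearson correlation of log2 CPM over the 10 libraries, which share litters, as a description. For Grb10 they were Coro1c (0.951), Foxo6 (0.95) and Ccdc177 (0.95). For Ddc they were Rfxap (0.953), Zfp882 (0.892) and Mospd1 (0.891), and for Cobl they were Mllt3 (0.976), Commd6 (0.976) and Epb41l3 (0.95). For Commd1 they were Gm7332 (0.968), Anapc13 (0.964) and Ppm1d (0.964), and for Zrsr1 Gpx8 (0.916), Lmbrd1 (0.913) and Atg13 (0.907). The ranking depended on the measure: 2 of these 15 genes, Rfxap and Zfp882, were also among the 3 highest by Spearman correlation, and Epb41l3 had rank 124. By Pearson correlation no member was among the 3 genes most like another. Grb10 and Ddc, neighbours in 1 domain, had a Pearson correlation of -0.736 (Spearman -0.624). Cobl, of the same domain, had 0.528 (Spearman 0.733) with Grb10 and -0.31 (Spearman -0.248) with Ddc. The nested pair Commd1 and Zrsr1 had 0.100 (Spearman 0.309).

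Genes related to each member by pathway or gene family were measured from lists. None of them passed the genotype test in edgeR over both sexes, in females or in males. All tested genes had a median log2 fold change of -0.01 over both sexes, with 48.0% above 0. Of them, 5.9% had an unadjusted p under 0.05 in edgeR. Of 14 tested genes listed around Grb10 for insulin and IGF receptors and their signalling, 6 were higher and 8 lower in E147A/+. Their median was -0.02, with 0 at an unadjusted p under 0.05. Gigyf1, a GRB10-interacting protein, had the lowest p, at 0.53 (SE 0.33, adjusted p = 0.824). The receptors themselves were well expressed: Insr ranged from 77.2 to 187.5 CPM and Igf1r from 70.2 to 155.6 CPM.

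Of 14 genes of monoamine synthesis and handling around Ddc, 7 passed the filter. Th, the tyrosine hydroxylase that acts before Ddc in dopamine synthesis, had at most 1 count in any library, and Dbh, which acts after it, at most 1. Of the 7, 3 were higher and 4 lower, with a median of -0.08 and 1 at an unadjusted p under 0.05. That gene was Maoa, a monoamine oxidase, at -0.35 (SE 0.13, adjusted p = 0.786).

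Of 13 tested genes listed around Cobl, for actin nucleation and others such as Pacsin2 and Prmt2, 4 were higher and 9 lower. Their median was -0.11, with 0 at an unadjusted p under 0.05. Actr2, a subunit of the ARP2/3 complex, had the lowest p, at -0.21 (SE 0.17, adjusted p = 0.824). Of 18 tested genes listed around Commd1, COMMD and retriever genes with Atp7a, Atp7b, Cul2 and Rela, 6 were higher and 12 lower. Their median was -0.03, with 0 at an unadjusted p under 0.05. Commd9, a family member, was at -0.39 (SE 0.19, adjusted p = 0.821). Of 12 tested genes of splice site recognition and the minor spliceosome, listed around Zrsr1, 7 were higher and 5 lower. Their median was 0.13, with 1 at an unadjusted p under 0.05. That gene was Snrnp48, a protein of the minor spliceosome, at 0.47 (SE 0.16, adjusted p = 0.738), and Zrsr2, the X-linked relative of Zrsr1, was at 0.19 (SE 0.12, adjusted p = 0.824).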

How the data were processed

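The deposited table holds raw counts of the 10 libraries by gene and separate 129 and Cast counts of the 4 female ones. Stranded poly(A) libraries were read as paired ends of 80 bp, per the labels' protocols. Trim Galore 0.4.4, HISAT2 2.0.5, featureCounts, R 3.5.1, edgeR 3.24.0 and the builds GRCm38 and mm10 are named, with no role, per the submitters' processing notes. The allele assignment and the use of strand are not given in the sources used here.

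Genes were kept by filterByExpr (17110 of 52632), scaled by TMM to CPM and tested with edgeR 4.0.16 (R 4.3.3), quasi-likelihood F test, 4 group means, 6 residual degrees of freedom, Benjamini-Hochberg threshold 0.05. Standard errors were taken as the size of the log2 fold change over the root of F. Alleles were tested with the library as a block and 1 size per library, over genes in bins carrying both strains. Exon lengths came from GENCODE M21, which gave the same coordinates for 98.7% of 52403 matched genes. The methods were tested on simulated data. Shares have 95% Wilson intervals and a floor of 3 counts. Between-genotype tests of allele shares could not be made.

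The members and the gene lists were chosen with earlier results of these data known. Named were the 5 members, Smchd1, the 3 genes most like each member, neighbours, and per list up to 2 genes of lowest p; others are said to be chosen otherwise or illustrate a list. Alternatives were RLE, DESeq2 1.42.0, limma-voom (limma 3.58.1), other filters, litter, a replicate block, other windows and leaving out each library. The same number in different groups marks different embryos. The correlations of their deviations were -0.304 in females and -0.238, 0.416 and 0.0341 in males, so the numbers do not pair them. Lengths and CPM do not remove differences in mappability between strains.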

Additional observations from a re-analysis of the deposited data

How the results depend on the processing

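No member passed the genotype threshold under any alternative run, nor when any library was left out. Ddc and Cobl were not tested with at least 10 counts in every library, which removed them. Under other windows, class limits and count minimums the same libraries carried both strains. With flanking genes within 10 Mb, 1 of 96 was below Grb10 in +/+ replicate 1 and 0 in replicate 2, Zrsr1 was above 65 and 64 of 65, and 8 and 2 of 65 were below Commd1. In the E147A/+ libraries 22 and 19 of the 96 genes were then above 5% Cast. Within 2 Mb only 1 gene was left around Grb10, and 2 and 1 of 17 were below Commd1. Without 1 +/+ female the Cast shares ranged from 0.221% to 0.370% for Grb10, 36.8% to 42.4% for Commd1, 0.0% to 30.8% for Cobl and 0.0% to 50% for Ddc, and stayed at 100% for Zrsr1. Members called by allele fell from 2 to 0 with all autosomal genes (0 genes called of all) and to 1 with no filter (123 genes called against 356), and stayed at 2 with TMM per column (433) and limma-voom (513). With all autosomal genes more genes were tested, those in stretches without Cast included. The sign of several genotype values turned, and the cause was not tested. With limma-voom Grb10 over both sexes was -0.013 and Cobl 0.021 (0.38 in females, 0.71 for the difference between the sexes). With litter as a covariate Grb10 over both sexes was -0.038, Ddc in females 0.25 and Cobl in males 0.39. With the replicate block Cobl was 0.20 over both sexes, 0.37 in females, 0.025 in males and 0.34 for the difference between the sexes, and with the female numbers crossed 0.18, 0.34, 0.022 and 0.32. Leaving out 1 library gave -0.10 to 0.17 for Grb10 and -0.66 to 1.05 for Cobl over both sexes, -0.68 to 0.42 for Ddc and -1.20 to 2.26 for Cobl in females, -0.55 to 0.35 for Cobl in males, and -1.07 to 2.40 for Cobl and -0.041 to 0.28 for Commd1 in the difference between the sexes. Genes called over both sexes, 14, became 113 with DESeq2, 29 with limma-voom, 33 with no filter, 9 with at least 10 counts in every library, 3 with litter, 5 with the replicate block and 2 to 12 without 1 library. In females, 2 became 46 with DESeq2, 8 with no filter, 1 with only the groups compared, 0 with litter, 0 with the block and 0 to 2 without 1 library. In males, 4 became 48, 14, 1, 2, 2 and 1 to 4 in the same order, and 9 with limma-voom. For the difference between the sexes, 0 became 2 with DESeq2, 1 with litter and 0 to 1 without 1 library. A crossed female pairing, added after seeing the data, called 6 genes over both sexes, 0 in females and 3 in males. Ddc, with 6 allelic counts over both +/+ females, and Cobl in +/+ replicate 1, with 2, were too shallow for a statement on allele use.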
